A study of Mus musculus with 24 samples.

Results

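The immunity-related GTPases (IRG proteins) were followed in the liver of young mice across individual animals, microarray slides and 2 post-weaning diets. The members were selected by their diet difference and family, after lower means of several of them in GLU+GAL mice had been seen on these arrays: Igtp, Irgm1, Irgm2, Iigp1, Ifi47, Tgtp1, Tgtp2 and Gm4951. Each was looked up by its gene name on the array, and the probe with the highest mean Cy5 signal over 24 arrays stood for the gene. Of the 8 names, 7 had a probe, out of 37074 gene names on the array and 18649 that passed a filter on signal. All 7 chosen probes were well above background on 24 of 24 arrays, and none was saturated. Tgtp1 had no spot under its own name, but its transcript is listed for the Tgtp2 probe, so the signals of these near-identical genes cannot be told apart and the value is given under Tgtp2.

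All animals were C57BL/6JRcc mice, labelled female and housed individually, that started a semi-synthetic diet at 3 weeks of age and were killed 3 weeks later (postnatal day 42) in the light phase without food. Both diets drew 16% of energy from fat, 20% from protein, 32% from starch and 32% from monosaccharides. The monosaccharide was glucose alone in the GLU diet (12 mice) and glucose with galactose in equal parts in the GLU+GAL diet (12 mice). RNA of the right liver lobe of each mouse, labelled with Cy5, was hybridised with a Cy3-labelled pool of all mice. Each value below is a normalized log2 ratio of 1 mouse over that pool. For a given probe 0 need not be the level of the pool, as Iigp1 averaged -0.37 in GLU and -0.78 in GLU+GAL mice. Values of a gene are therefore compared between mice.

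IRG proteins are GTPases made by cells that have received interferon, above all interferon-gamma, which signals through the kinases Jak1 and Jak2 and induces the transcription factor Irf1. In mice they defend cells against bacteria and protozoa that live in vacuoles. The regulators Irgm1, Irgm2 and Igtp (also called Irgm3) sit on the cell's own membranes and keep the effectors inactive there. The effectors, among them Iigp1 (Irga6), Ifi47 (Irgd) and Tgtp (Irgb6), load onto the vacuole around the parasite and break it up.

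Promoters are shown because the transcripts moved together between mice, as described below, and because interferon acts through known short sequences. RefSeq promoters (build GRCm38.p6) matched 6 of the 8 names, and the last 100 bases before each gene's start are printed 5′ to 3′ on the gene's strand, all on chromosome 11: Igtp at chr11:58199456-58199555 (plus strand), Irgm2 at chr11:58214877-58214976 (plus), Tgtp1 at chr11:48992247-48992346 (minus), Tgtp2 at chr11:49064213-49064312 (minus), Irgm1 at chr11:48871421-48871520 (minus) and Ifi47 at chr11:49076487-49076586 (plus). Capitals mark the core of the interferon-stimulated response element (GAAA, any 2 bases, then GAAA again) and TTCNNNGAA, the core of the gamma-activated sequence of interferon-gamma targets. Both were searched on both strands.
Igtp: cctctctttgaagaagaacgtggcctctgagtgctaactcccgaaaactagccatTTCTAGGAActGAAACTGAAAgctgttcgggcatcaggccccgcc
Irgm2: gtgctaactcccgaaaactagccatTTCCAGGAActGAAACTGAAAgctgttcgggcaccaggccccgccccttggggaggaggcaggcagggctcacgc
Tgtp1: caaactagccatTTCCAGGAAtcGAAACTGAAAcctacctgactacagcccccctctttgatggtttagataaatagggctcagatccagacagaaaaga
Tgtp2: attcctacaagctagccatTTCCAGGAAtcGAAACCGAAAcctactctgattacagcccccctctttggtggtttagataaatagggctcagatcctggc
Irgm1: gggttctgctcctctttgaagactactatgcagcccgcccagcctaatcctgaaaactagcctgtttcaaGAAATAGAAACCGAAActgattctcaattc
Ifi47: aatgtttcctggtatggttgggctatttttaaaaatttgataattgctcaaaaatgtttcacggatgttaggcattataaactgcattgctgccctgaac

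In Igtp, Irgm2, Tgtp1 and Tgtp2 both cores stood side by side, with the gamma-activated core upstream. Relative to the gene's start, the gamma-activated core lay at -45 to -37 in Igtp, -75 to -67 in Irgm2, -88 to -80 in Tgtp1 and -81 to -73 in Tgtp2. The interferon-stimulated core followed at -34 to -25, -64 to -55, -77 to -68 and -70 to -61, in the same order of genes. Irgm1 held a pair of overlapping interferon-stimulated cores, at -30 to -21 and -24 to -15, and no gamma-activated core in the 250 bases before its start. For Ifi47 neither string was in those 250 bases, which says only that these letters are not in this window. Among 32851 promoters of the same set, the interferon-stimulated core was in the last 100 bases of 323 (0.983%), the gamma-activated core in those of 839 (2.55%), and both in those of 15 (0.0457%). In the full 250 bases the 2 strings were in 978 (2.98%) and 2306 (7.02%) promoters. The windows of Igtp and Irgm2 share a run of 55 identical bases and those of Tgtp1 and Tgtp2 one of 27, while Ifi47 shares no run longer than 8 with any of the others. These windows are therefore not independent of each other.

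Of the 15 genes with both strings in the last 100 bases, 7 that are not IRG members named above were measured in these livers. Over the 24 mice, with the diet means taken off, their correlation with Igtp was 0.95 for the guanylate-binding protein gene Gbp7, 0.89 for Gm12250 (Irgb10, a further IRG effector), 0.64 for Parp11 and 0.61 for Oas1a. It was 0.34 for Serpinb6a, 0.20 for Ncf1 and 0.10 for Myd88, so 4 of the 7 were above 0.5, against 1.63% of all genes. Without the mouse GLU 11, described next, Gbp7 kept 0.86, Gm12250 0.69, Oas1a 0.62, Parp11 0.40 and Serpinb6a 0.33, and Ncf1 and Myd88 were at 0.09 and -0.10. These mice share slides and a pool, and a matched string is not a shown binding site. The 7 genes include Gm12250, itself of the IRG family, and the share for all genes covers the full 24 mice only. Whether the strings bear on the covariation was not tested.

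The arrays were of even quality, with 46.6% to 51.3% of non-control spots well above background, and no pair of arrays held identical values. All 9 hepatocyte markers measured were well above background on all 24 arrays. The Cy3 signal of GLU+GAL 4 resembled the other arrays least (median Cy3 correlation with the other arrays 0.968, the next lowest 0.990), and on GLU+GAL 12 alone 3 probes of the Y-linked genes Ddx3y and Eif2s3y were well above background, against the label. Without both arrays the median diet difference of the members was -0.41, next to -0.42 with them, and the median correlation between members was 0.82, next to 0.81. The 24 arrays lay on 3 slides of 8, with 4 mice of each diet on every slide.

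Each of the 7 measured members had a lower mean in GLU+GAL than in GLU mice. The same animal, GLU 11, was the highest of 24 for all 7. GLU 11 was the highest mouse for 3.29% of all genes. The members were proposed from this diet contrast, so its values for them are a description. Their outcome in the limma fit over all genes, given below, is no independent test. In whole liver, fewer cells that make a transcript and less of it per cell cannot be told apart.

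Among the regulators, Igtp ran from a lowest value of -0.37 over a median of 0.02 to a highest of 1.96 in GLU mice, and from -0.87 over -0.40 to 0.16 in GLU+GAL mice. GLU 11 was the high animal, the next being GLU 5 at 0.68, and GLU+GAL 7 was the lowest. The groups overlapped, although the GLU median exceeded the values of 10 of 12 GLU+GAL mice. The means were 0.24 ± 0.61 (SD, n = 12) and -0.38 ± 0.30 (SD, n = 12), a difference (GLU+GAL minus GLU, from the limma fit) of -0.62 ± 0.18 (SE), or 0.652 times the GLU level. Without GLU 11 the difference was -0.46, and the SD of the GLU mice was 0.29 in place of 0.61.

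Irgm1, without which mice lose control of many intracellular infections, had a narrower spread, with an SD of 0.30 in GLU and 0.20 in GLU+GAL mice. It ran from -0.33 over 0.14 to 0.85 in GLU mice and from -0.26 over -0.23 to 0.34 in GLU+GAL mice. The GLU+GAL values were packed closely at the bottom with GLU+GAL 2 at the top, and 11 of 12 lay below the GLU median, although the groups overlapped. The difference was -0.28 ± 0.10 (SE), and -0.22 without GLU 11. Other probes of Irgm1 gave -0.26 and -0.22 and followed the chosen probe with r of 0.91 and 0.86 over the mice, while a further one was not above background on any array.

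Irgm2 ran from -0.26 over 0.07 to 1.25 in GLU mice and from -0.64 over -0.29 to 0.28 in GLU+GAL mice. GLU 11 was again far above the next mouse, GLU 5 at 0.52, and GLU+GAL 10 was lowest. The diets overlapped, with 10 of 12 GLU+GAL mice below the GLU median and a difference of -0.42 ± 0.13 (SE), or -0.32 without GLU 11.

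**Figure D1:**
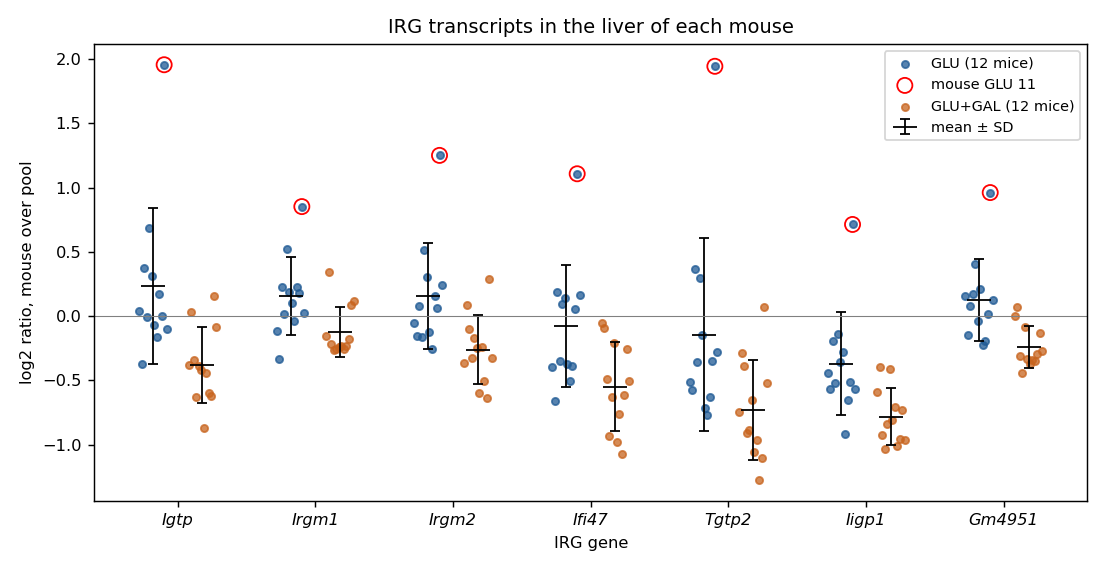
Log2 ratio of mouse over pool (vertical axis) for 7 IRG genes (horizontal axis), 1 point per mouse, blue for 12 GLU and orange for 12 GLU+GAL mice, with bars for the mean ± SD and a red ring around GLU 11. The ringed mouse is the top point of each gene, at 1.96 for Igtp and 0.71 for Iigp1, and the remaining points of the diets overlap with lower GLU+GAL means.

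Among the effectors, Tgtp2 had the largest within-diet SD of the 7 members. It ran from -0.77 over -0.36 to 1.94 in GLU mice and from -1.28 over -0.82 to 0.07 in GLU+GAL mice. GLU 11 stood 2.30 above the median of the other GLU mice, a 4.94-fold higher ratio, and the next mouse was GLU 3 at 0.36. The groups overlapped, with 10 of 12 GLU+GAL mice below the GLU median and a difference of -0.58 ± 0.22 (SE). Leaving out GLU 11 brought it to -0.39.

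Ifi47 ran from -0.66 over -0.15 to 1.11 in GLU mice and from -1.07 over -0.56 to -0.05 in GLU+GAL mice. GLU 11 lay above the next mouse, GLU 3 at 0.19, GLU+GAL 9 was lowest, and the groups overlapped with 10 of 12 GLU+GAL mice below the GLU median. The difference was -0.47 ± 0.16 (SE), and -0.36 without GLU 11.

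Iigp1 ran from -0.91 over -0.48 to 0.71 in GLU mice and from -1.04 over -0.83 to -0.39 in GLU+GAL mice. Only GLU 11 had a positive value, the next mouse being GLU 5 at -0.14. The groups overlapped, with 10 of 12 GLU+GAL mice below the GLU median. The difference was -0.41 ± 0.12 (SE), or -0.31 without GLU 11, and a second, weaker probe that was above background on 22 arrays gave -0.17.

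Gm4951, an IRG gene whose probe lies on chromosome 18 as does that of Iigp1, ran from -0.23 over 0.10 to 0.96 in GLU mice and from -0.44 over -0.30 to 0.07 in GLU+GAL mice. The GLU median exceeded all 12 GLU+GAL values, yet the groups overlapped because the lowest GLU mice were within the GLU+GAL range. The difference was -0.36 ± 0.10 (SE), and -0.29 without GLU 11. A second probe gave -0.24 and followed the first with r of 0.41 only. The array's annotation places the chosen probes in build mm9 at chr11:58020927-58020986 (Igtp), chr11:48679069-48679128 (Irgm1), chr11:58036064-58036123 (Irgm2), chr11:48910402-48910461 (Ifi47), chr11:48871837-48871896 (Tgtp2), chr18:60552153-60552212 (Iigp1) and chr18:60407406-60407465 (Gm4951). Exon annotation of that build was not used here.

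The median difference of the 7 members was -0.42, where that of all 18649 genes was 0.00. All 7 had a lower GLU+GAL mean, as did 49.2% of all genes. The limma fit over all genes called 0 genes (0%) at an adjusted p under 0.05, with 803 genes at an unadjusted p under 0.05, of which 496 (2.66%) were lower and 307 (1.65%) higher in GLU+GAL mice. Without GLU 3 the adjusted count was 1. No member was called with all 24 mice, and the lowest adjusted p of any gene in that limma fit was 0.523. Differences between the diet medians, on which a single mouse weighs little, ran from -0.46 for Tgtp2 to -0.35 for Iigp1.

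GLU 11 set much of the spread. It exceeded the median of the other GLU mice by 1.95 for Igtp (3.87-fold), 1.45 for Ifi47 (2.74-fold), 1.23 for Iigp1 (2.34-fold), 1.19 for Irgm2 (2.28-fold), 0.88 for Gm4951 (1.85-fold) and 0.75 for Irgm1 (1.68-fold), beside the 2.30 of Tgtp2. The within-diet SD of Tgtp2 was above that of 99.3% of all genes, that of Igtp above 98.5% and that of Gm4951 above 86.2%. Without GLU 11 these shares were 96.6%, 91.7% and 54.7%. The effector Ifi47 stood at 97.7% with and 94.4% without that mouse.

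Averaged over the 7 members, GLU 11 was at 1.25, followed by GLU 5 at 0.34, GLU 3 at 0.16 and GLU 6 at 0.06. The lowest mice were GLU+GAL 9 at -0.72, GLU+GAL 7 at -0.70, GLU+GAL 4 at -0.65 and GLU+GAL 10 at -0.63. The top of the order was thus held by GLU mice and the bottom by GLU+GAL mice, with GLU+GAL 2 at -0.03 in the fifth place and GLU 8 at -0.41 in the lower part. In GLU 11, the mean of the 14 Kupffer cell markers (resident liver macrophages) was also the highest of the GLU mice, at 0.71. Among the GLU mice, the same held for the means of T and NK cell (0.42), dendritic cell (0.24) and neutrophil markers (0.18). It did not hold for B cell, liver sinusoidal endothelium and hepatocyte markers. Over the mice of both diets, GLU 11 was still the highest for Kupffer cell and for T and NK cell markers. For dendritic cell markers, GLU+GAL 11 (0.256) and GLU+GAL 3 (0.242) were higher. For neutrophil markers, GLU+GAL 11 was higher at 0.70, and its mean over the members was -0.07.

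**Figure D2:**
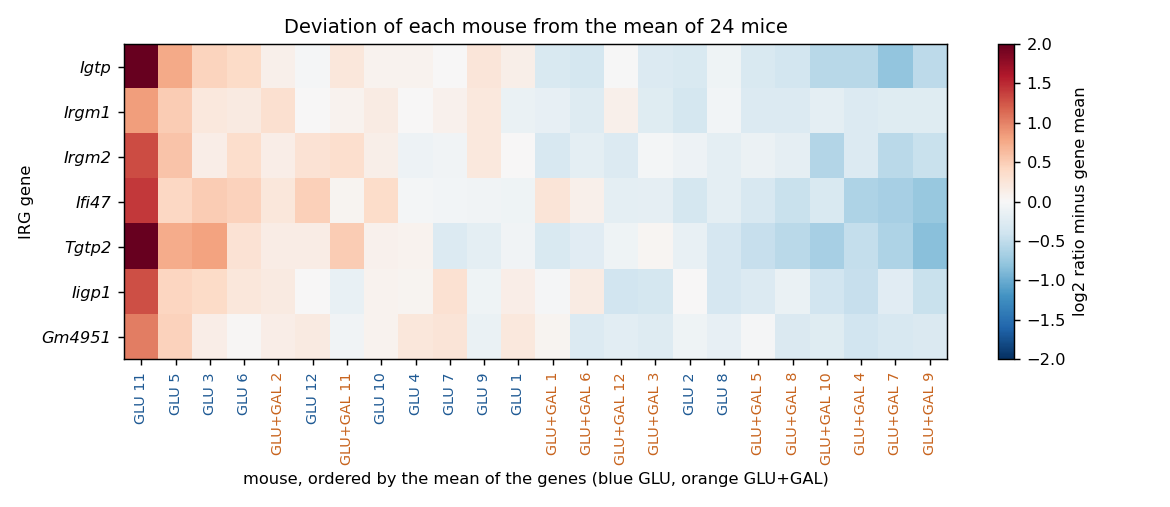
Deviation of each mouse from the mean of 24 mice, as a log2 ratio on a colour scale, for 7 IRG genes (rows) and 24 mice (columns) ordered by the mean of the genes. The GLU 11 column is the deepest red of each row, and the 4 columns at the right end are GLU+GAL mice.

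Slide means of the members were not told apart after adjustment. The limma F-test for slide, with diet in the fit, called 0 of 18649 genes (0%) after adjustment and 1226 (6.57%) at an unadjusted p under 0.05. Among the members, Gm4951 and Iigp1 had unadjusted limma p-values of 0.0205 and 0.0368, both with an adjusted p of 0.754, and the other 5 had adjusted p-values of up to 0.96. Gm4951 averaged 0.13 on slide 2 against -0.12 on slide 1 and -0.17 on slide 3. Iigp1 averaged -0.37, -0.62 and -0.73 on slides 2, 1 and 3. Slide 2 holds GLU 11.

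Within slides the diet difference kept its sign on every slide for every member, and its size varied. For Igtp it was -0.22 on slide 1, -1.10 on slide 2 and -0.53 on slide 3. Tgtp2 had -0.21, -1.10 and -0.44, and Gm4951 -0.12, -0.61 and -0.36. The slide 2 value was the largest for each member but Ifi47 with -0.36, -0.49 and -0.57.

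Irgm1 had -0.04, -0.55 and -0.25, Irgm2 -0.23, -0.76 and -0.27, and Iigp1 -0.17, -0.66 and -0.40 on slides 1, 2 and 3. Taking GLU 11 off slide 2 left -0.67 for Igtp, -0.54 for Tgtp2, -0.47 for Irgm2, -0.43 for Gm4951, -0.41 for Iigp1, -0.38 for Irgm1 and -0.15 for Ifi47. The limma test of the diet-by-slide interaction called 0 genes (0%) after adjustment and 1577 (8.46%) at an unadjusted p under 0.05. Without GLU+GAL 1 that adjusted count was 391. For the members its adjusted p over all 24 mice ran from 0.642 to 0.972 and its unadjusted p from 0.0686 to 0.86.

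**Figure D3:**
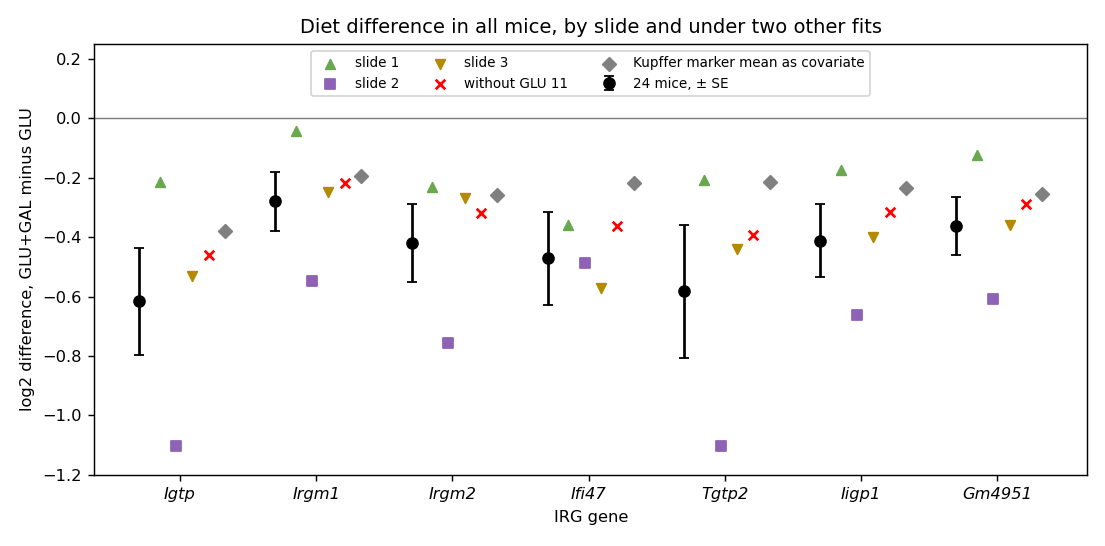
Diet difference (GLU+GAL minus GLU, log2) of 7 IRG genes: black points with SE bars for all 24 mice, coloured marks for each slide, red crosses without GLU 11 and grey diamonds with the Kupffer marker mean as a covariate. All marks lie below 0, with Igtp and Tgtp2 at -1.10 on slide 2 and Irgm1 at -0.04 on slide 1.

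The 7 measured members varied together between mice of the same diet. Over 21 pairs of members, with diet means taken off, Pearson's r ran from 0.70 (Irgm1 with Iigp1) over a median of 0.81 to 0.94 (Igtp with Tgtp2), and Spearman's rho from 0.46 (Irgm2 with Gm4951) over 0.63 to 0.83 (Ifi47 with Tgtp2). Two-sided permutation p-values over 24 mice reached at most 0.00156 for r and 0.0293 for rho, also after Benjamini-Hochberg adjustment over the 21 pairs; the smallest, 1e-05, is the least that 100000 resamples can give. Without the 2 mice farthest from the median of the x measure, r ran from 0.34 over 0.60 to 0.85. Without GLU 11 it ran from 0.47 over 0.65 to 0.85, and rho from 0.37 over 0.60 to 0.80.

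Among the regulators, Igtp followed Irgm2 with r = 0.92 and Irgm1 with 0.89, or 0.83 and 0.85 without GLU 11. The chromosome 18 pair of Iigp1 and Gm4951 had 0.85, or 0.67 without that mouse. The GLU mice alone had a median r of 0.88 and the GLU+GAL mice, which do not include GLU 11, one of 0.63, a difference that was not tested. Within slides 1, 2 and 3 the median r was 0.75, 0.91 and 0.63, over 8 mice each. With slide and diet means both taken off it was 0.83.

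**Figure D4:**
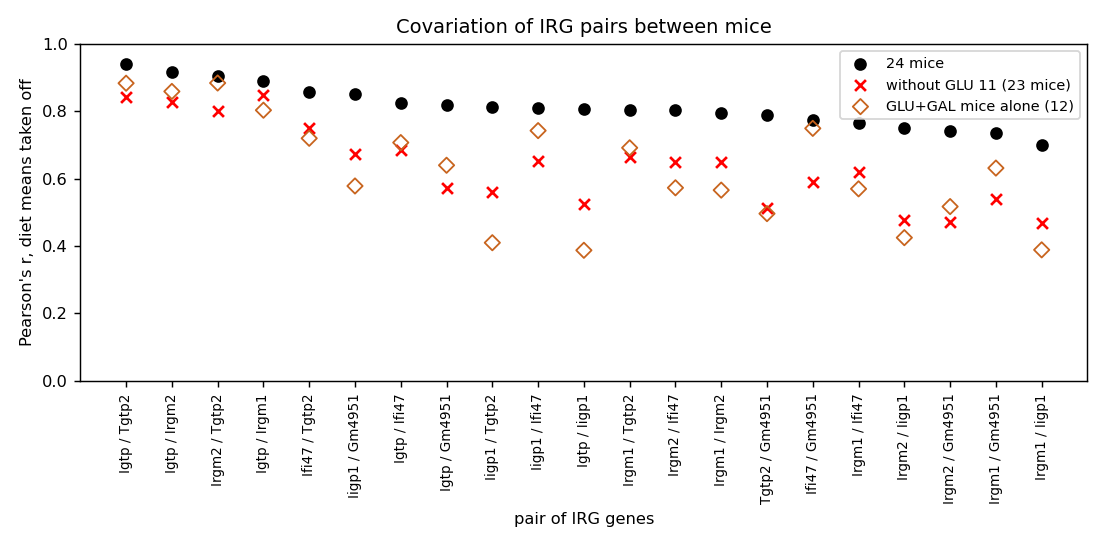
Pearson's r between mice, diet means taken off, for 21 pairs of IRG genes ordered from high to low: black points for 24 mice, red crosses for 23 mice without GLU 11 and open diamonds for the 12 GLU+GAL mice. All black points lie between 0.70 and 0.94, and the crosses between 0.47 and 0.85.

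The covariation was also set against all genes, with a limma fit of each of 18648 genes on 1 member and diet. Igtp had 61 genes that covaried positively at an adjusted p under 0.05 (0.327% of genes), and all 6 other members were among them. Tgtp2 had 207 (1.11%), Ifi47 145 (0.778%), Iigp1 69 (0.37%), Irgm2 54 (0.29%), Irgm1 28 (0.15%) and Gm4951 24 (0.129%). In each of these 7 limma fits the 6 other members passed, with a highest adjusted p of 0.0461.

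Without GLU 11 the positive counts were lower for each member but Iigp1. Igtp had 9 genes (0.0483%), including 3 of the 6 other members, and Tgtp2 94 (0.504%) with 3. Ifi47 had 7 (0.0375%) with 1 member, Irgm2 5 (0.0268%) with 2, Irgm1 1 (0.00536%), which was a member, and Gm4951 1 (0.00536%), which was not. Iigp1 had 111 positive genes (0.595%), 2 of them members, and 314 that covaried negatively (1.68%), where 1 did with all mice (0.00536%). For Ifi47 and Tgtp2, 9 (0.0483%) and 2 genes (0.0107%) covaried negatively in the limma fit with all mice and 0 without GLU 11, and the other 4 members had 0 in both.

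The members were also set against other genes, leaving out the 8 other IRG-like genes listed below but no further relatives of the family. Genes whose pattern was among the 10 most like the mean of the members' standardised values are given with r as a description. These r are over 24 mice with diet means off. Gbp7 led with r = 0.94 (0.86 without GLU 11), followed by BC023105 at 0.91 (0.74), Gbp6 at 0.90 (0.76) and the immunoproteasome subunit Psmb10 at 0.90 (0.75). Then came Psmb9 at 0.89 (0.70), the dNTPase Samhd1 at 0.88 (0.73), Gbp3 at 0.88 (0.78), and the MHC class II genes H2-DMb1 at 0.87 (0.73) and H2-Aa at 0.86 (0.72). The median over 18636 genes was -0.02, and 68 genes exceeded 0.7.

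Of the pathway upstream, 17 of 18 listed genes were measured, and Ifng, the cytokine itself, did not pass the signal filter. The list also holds parts of type I interferon signalling, Irf9 among them, so its counts are not of interferon-gamma signalling alone. By diet, 14 of the 17 had a lower GLU+GAL mean (49.2% of all genes), and the median difference of the 17 was -0.04. At an unadjusted limma p under 0.05, 3 were lower (2.66% of all genes), none of them called after adjustment. Those 3 were the receptor chain Ifngr1 (-0.16 ± 0.07, SE), Irf9 (-0.14 ± 0.06) and Irf1 (-0.20 ± 0.09). Socs1, which inhibits the pathway, had -0.21 ± 0.11.

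Among 29 measured interferon-inducible genes outside the family (Ido1 did not pass the filter), 28 had a lower GLU+GAL mean (49.2% of all genes). The median difference of the 29 was -0.20. At an unadjusted limma p under 0.05, 8 were lower (2.66% of all genes), and none passed adjustment. The chemokine gene Cxcl10 had -0.43 ± 0.14 (SE), Gbp7 -0.42 ± 0.14, Gbp6 -0.45 ± 0.17 and the nucleotide kinase gene Cmpk2 -0.34 ± 0.11. With Igtp, 13 of the 29 covaried in the limma fit after adjustment (0.327% of all genes). Without GLU 11, 2 did, Gbp7 and Gbp3 (0.0483% of all genes). Their median r with Igtp was 0.67, or 0.59 without that mouse.

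The ubiquitin-like conjugation genes that bring IRG proteins to vacuoles were spread around 0. Of 12, 6 had a lower mean (49.2% of all genes). The median r with Igtp was -0.05, with 0 genes covarying in the limma fit (0.327% of all genes). Sqstm1, an adaptor of autophagy, had -0.15 ± 0.05 (SE) and was the 1 gene of the list at an unadjusted limma p under 0.05. The share of all genes lower at that p was 2.66%. Map1lc3a had -0.11 ± 0.06, Atg5 0.08 ± 0.06 and Atg7 0.08 ± 0.06. Among 6 measured of 8 other IRG-like genes, 5 had a lower mean (49.2% of all genes), with a median difference of -0.07. At an unadjusted limma p under 0.05, 0 were lower (2.66% of all genes) and 0 higher (1.65%). Gm12250 (-0.20 ± 0.11) covaried with Igtp with r = 0.89 and an adjusted limma p of 1.33e-05, or 0.376 without GLU 11. F830016B08Rik (-0.16 ± 0.14), Irgq (-0.08 ± 0.07) and 9930111J21Rik1 (-0.06 ± 0.08) did not. Gm5431 had a higher GLU+GAL mean (0.06 ± 0.08) and r = 0.13 with Igtp. The median r of the 6 genes with Igtp was 0.10, so the covariation of the members did not extend to most of them.

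**Figure D5:**
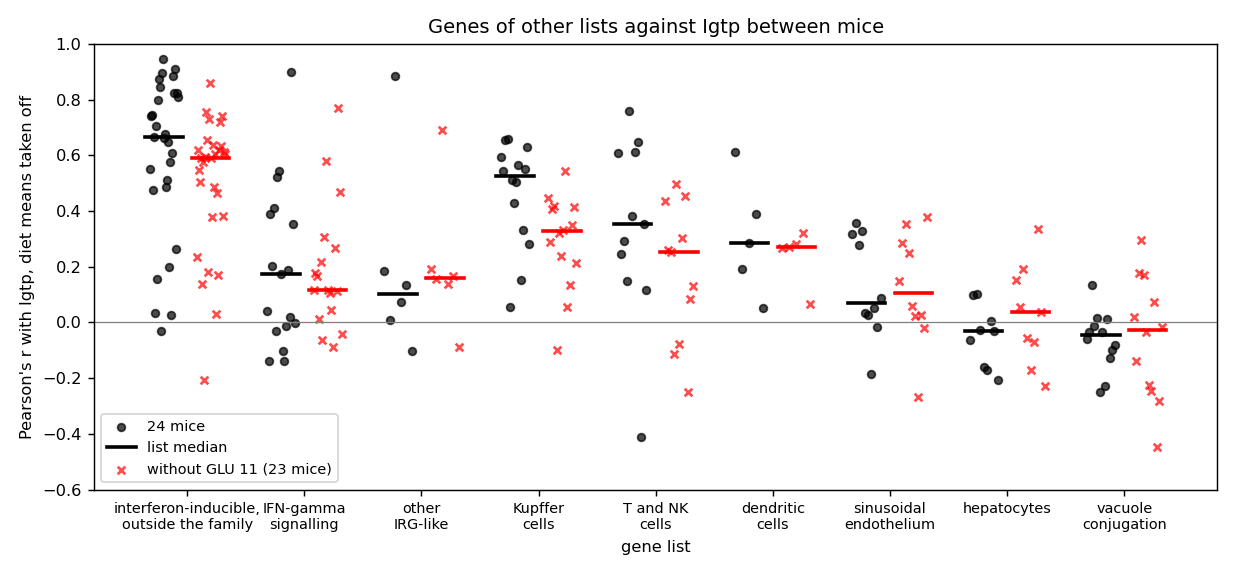
Pearson's r with Igtp between mice, diet means taken off, for each measured gene of the lists named on the axis: black points for 24 mice, red crosses for 23 mice without GLU 11 and bars for the list medians. The interferon-inducible list has the highest median, 0.67 and 0.59, the Kupffer list has 0.53 and 0.33, and hepatocyte and vacuole conjugation genes lie around 0.

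Cell marker lists differed in their median diet difference. It was -0.20 for Kupffer cells, -0.14 for B cells and for neutrophils, and -0.11 for hepatocytes. For dendritic cells it was -0.07, for T and NK cells -0.06 and for liver sinusoidal endothelium -0.0003. Of 14 Kupffer cell markers, 13 had a lower GLU+GAL mean (49.2% of all genes). At an unadjusted limma p under 0.05, 7 were lower (2.66% of all genes), and none of the 14 passed adjustment. With Igtp, 0 of the 14 covaried in the limma fit after adjustment (0.327% of all genes), at a median r of 0.53, or 0.33 without GLU 11. The mean of the 14 per mouse ran from -0.07 to 0.71 (GLU 11) in GLU mice. In GLU+GAL mice it ran from -0.47 (GLU+GAL 9) to 0.32 (GLU+GAL 11). As a covariate in the fit, that mean left diet differences of -0.38 for Igtp, -0.26 for Irgm2, -0.25 for Gm4951, -0.23 for Iigp1, -0.22 for Ifi47, -0.21 for Tgtp2 and -0.19 for Irgm1. The median r between members with that mean held constant was 0.72.

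Igtp was correlated with the mean of each of 11 lists over 24 mice, diet means off, with two-sided permutation p-values. For the interferon-inducible list r was 0.89 and rho 0.82 (permutation p = 1e-05 and 2e-05, adjusted over 11 lists 0.00011 for r), 0.77 without the 2 farthest mice and 0.82 without GLU 11. For the signalling list r was 0.69 and rho 0.57 (permutation p = 0.00015 and 0.0045, adjusted 0.000825), 0.53 without the 2 farthest mice and 0.62 without GLU 11. Both held their sign within slides 1, 2 and 3. They were at 0.91, 0.97 and 0.77 for the first list and 0.76, 0.83 and 0.45 for the second. Gene by gene, the median r of the signalling list with Igtp was 0.17, or 0.12 without GLU 11. The correlation of that list's mean thus does not describe its typical gene.

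For Kupffer cell markers r was 0.57 and rho 0.52 (permutation p = 0.00484 and 0.0114, adjusted 0.0133), but 0.25 without the 2 farthest mice and 0.37 without GLU 11. Within slides 1, 2 and 3 it was 0.55, 0.67 and 0.58, and slide 3 holds neither of the 2 farthest mice. For T and NK cell markers r was 0.61 and rho 0.53 (permutation p = 0.0048 and 0.00787, adjusted 0.0133), 0.31 without the 2 farthest and 0.34 without GLU 11, with 0.46, 0.87 and 0.52 by slide. Gzma, a granule protease of killer lymphocytes, was the 1 T and NK gene of 11 measured that covaried with Igtp after limma adjustment (0.327% of all genes). Without GLU 11, 0 did (0.0483% of all genes). The other 7 lists had adjusted permutation p-values from 0.0757 (other IRG-like genes, r = 0.38) to 0.658 (hepatocytes, r = -0.10). Of the hepatocyte markers, 0 of 9 covaried with Igtp (0.327% of all genes), and 7 had a lower GLU+GAL mean (49.2% of all genes). At an unadjusted limma p under 0.05, 3 were lower in GLU+GAL mice (2.66% of all genes), and none passed adjustment. The part of cell makeup in the IRG values was not tested beyond the covariate fit.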

How the data were processed

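Liver RNA of 24 mice (12 per diet) was measured on 2-colour Agilent arrays of 62976 features, 1 array per mouse, on 3 slides. The authors deposited scanner files of spot intensity, for which the submitters' processing notes name Agilent Feature Extraction 10.7.3.1. The log10 ratio of red over green that they hold was not used. They also deposited a table of 29287 spots with log2 values, with a normalization not given in the sources used here, which served as an alternative.

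Intensities were corrected with normexp (offset 50) and normalized by loess within arrays, with control spots at weight 0 and outlier spots left out (R 4.3.3, limma 3.58.1, data.table package 1.17.8). The main values are log2 ratios of Cy5 (the mouse) over Cy3 (the pool of all mice), as the deposited labels name the dyes. Each gene name was represented by the probe with the highest mean Cy5 signal, and was tested where 6 or more arrays of either diet flagged that probe as well above background. Tests were limma's, with Benjamini-Hochberg adjustment over all genes tested and a threshold of 0.05. Correlations used 100000 permutations. Scripts were tested on simulated data.

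Gene names are those of the array's design and can be old. The slide is the batch, and slide and scan cannot be told apart. The number of arrays limits the precision, and the p-values measure the spread between individual mice. Members and lists were chosen with earlier results of these data known. Beside the members, the text names the 10 genes most correlated with the mean of the members and up to 4 genes with the smallest unadjusted diet p in each of 4 pathway lists, except for an item that is not reported here. Gzma, Gm5431, the probes that show an array standing apart and the promoter genes were named after their values were seen. Alternatives were other background corrections and normalizations, Cy5 alone, other probe and signal filters, slide and replicate blocks, robust variances, array weights, the Kupffer covariate and leaving out each mouse. Figures were drawn with matplotlib 3.10.9.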

Additional observations from a re-analysis of the deposited data

How the results depend on the processing

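The diet difference of each member stayed negative in 18 other settings. It left its replicate spread only within slide 2, at -1.10 for Igtp and -0.55 for Irgm1. The signal filters, the slide and replicate blocks and the robust variances could not move this difference, and left each member's value unchanged. Nor could the mean over all probes for genes with 1 probe. Leaving out 1 mouse at a time moved the members' median difference between -0.47 and -0.32, and the median pair correlation between 0.65 (without GLU 11) and 0.825. That correlation was 0.726 from Cy5 alone, 0.882 in GLU mice, 0.632 in GLU+GAL mice and 0.716 with the Kupffer mean held constant. The count of genes covarying with Igtp was 39 from Agilent's processed signals, 96 with median centring and 9 to 72 with 1 mouse left out, 9 being the value without GLU 11. The diet count was 0, or 1 without GLU 3; the diet-by-slide count was 0, or 391 without GLU+GAL 1; and the slide count was 0 with any mouse left out, and 6 from Cy5 alone. With the replicate number as a block, the median difference was -0.42 and 0 genes were called, as without it. The main fit did not take the numbers to pair mice. Equally numbered mice deviated together with r from -0.38 to 0.52, over 0.1 for 8 of 12 numbers. Of 24 mice, 6 correlated best with their own number. Some equally numbered mice shared a slide. Whether the numbers mark pairs was not tested. Leaving out GLU+GAL 4 and 12 together, slide 2 without GLU 11, and the covariation with members other than Igtp without GLU 11 were chosen after seeing the data. The causes of these changes were not tested. A second probe for Iigp1 or Gm4951 does not follow the first closely, and the Tgtp genes share 1 probe.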
